A study of Mus musculus with 17 samples.

Results

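The p53 target genes described here are 33 of the 49585 genes in the deposited count tables: Trp53 itself, which encodes the transcription factor p53, with genes known to be activated by it in growth arrest, apoptosis, DNA repair and the response to stress. They were taken by symbol from the tables of 17 RNA-seq libraries of mouse bone marrow endothelial cells. The list was selected on earlier results of these libraries, namely the difference in these genes' counts between knockout and wild type. That comparison is therefore given as a description of the genes, with the share of all tested genes that met the same criterion beside the counts of members, and it lends no support to their choice. The comparison of 4 with 2 weeks played no part in the choice and was tested.

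The study deleted Eng, which encodes Endoglin, a co-receptor for ligands of the TGF-beta family, in adult endothelium. Knockout (KO) mice carried an Eng allele with loxP sites around exons 5 and 6 and the Cre recombinase CreERT2 under the endothelial Cdh5 promoter. Every library, KO and wild type (WT) alike, carries the label of tamoxifen injection, which the study's design places at 8 weeks of age, and cells were taken 2 or 4 weeks after induction. The labels do not state the strain, whether WT mice carried Cre, or whether animals were pooled, so the spread between libraries may be partly technical. The 2-week set comprised 4 WT and 4 KO libraries, with both sexes equally represented (2 and 2). The 4-week set comprised 5 WT libraries (2 female, 3 male) and 4 KO libraries (1 female, 3 male). A library's name gives the sex and the number from its title, as in f1 or m2, and a female WT library of 4 weeks is plain f.

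p53 is made continuously and kept scarce by Mdm2, the ubiquitin ligase that marks it for degradation and whose own gene p53 activates. DNA damage, nucleolar stress and other signals stabilize the protein, so its activity is read from its target genes better than from its own transcript. The targets stop the cell cycle through Cdkn1a, open the mitochondrial route to apoptosis through Bax and BH3-only proteins, aid repair of damaged DNA and adjust metabolism, and many cells carry a basal output of them.

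Sorted cells had the markers of endothelium in every library. Summed over 10 endothelial markers, levels were 5425 to 6763 CPM in WT and 4694 to 5477 CPM in KO at 2 weeks, where CPM is a gene's count divided by its library's mega-counts. Of 9 tested at that time, 7 had a log2 fold change below 0, and 2 were lower in KO with an unadjusted p under 0.05, against 1.47% of all genes. At 4 weeks the sums were 10944 to 12015 CPM in WT and 10057 to 11929.5 CPM in KO. Ptprc, the gene of the leukocyte antigen CD45, was at 0 in every 2-week WT library and reached 15.6 CPM in 1 KO library (m2) of that time. Eng was at 705 to 1307 CPM in WT and 225 to 347 CPM in KO at 2 weeks, and at 2400 to 2735 CPM in WT at 4 weeks. The 4-week KO libraries were unequal, with 873 CPM in f2, 322 in m1, 1647 in m2 and 274 in m3. Total counts were 26705337 to 40882715 at 2 weeks and 20477400 to 33726630 at 4 weeks. The 2-week libraries detected 10886 to 13583 genes and the 4-week libraries 15996 to 21235, and mitochondrial genes took 22.2% to 29.5% against 4.66% to 8.99% of counts. Time after induction and library preparation cannot be told apart.

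Neutrophil markers, 10 genes, summed to 22.6 to 110 CPM in WT and 107 to 4104 CPM in KO at 2 weeks, with the 2 high sums in KO m2 and m3. At 4 weeks they were at 20.8 to 100 CPM in WT and 37.3 to 75.4 CPM in KO, overlapping. Monocyte and macrophage markers, 8 genes, were highest in the same 2 libraries at 2 weeks, at 459 CPM in m2 and 293 CPM in m3 against 26.4 to 98.3 CPM in WT, and ranged over 115 to 175 CPM in WT and 96.4 to 197 CPM in KO at 4 weeks. Stromal and osteoblast markers, 8 genes, summed to 1071 to 1549 CPM in WT and 951 to 1214 CPM in KO at 2 weeks, and to 1152 to 2960 CPM in WT and 859 to 2697 CPM in KO at 4 weeks, where 6 of 7 tested had a log2 fold change below 0 and 2 were lower with an unadjusted p under 0.05, against 1.47% of all genes. Erythroid markers, also 10 genes, summed to 61.4 to 253 CPM in WT and 278 to 1248 CPM in KO at 2 weeks, and to 173 to 1305 CPM in WT and 627 to 2922 CPM in KO at 4 weeks. The neutrophil sums at 2 weeks and the erythroid sums were shifted toward KO, and the part of these cell types in the differences below was not tested except where a value is given. In these bulk samples a change in the share of a cell type and a change in RNA per cell cannot be told apart.

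Promoter sequence was available for 25 of the 33 genes, as 300-base windows around RefSeq transcript starts on mouse assembly GRCm38.p6 (250 bases before the start and 50 after it). The p53 half-site consensus, the 10-base palindrome to which a p53 dimer binds, was matched exactly in the windows of 12 of the 25: Trp53, Mdm2, Ccng1, Cdkn1a, Gadd45a, Ckap2, Bax, Ei24, Aen, Polk, Sesn1 and Rps27l. Over all 27025 genes with a window, 9.55% held a match. A pair of half-sites 0 to 13 bases apart with at most 1 mismatch, the arrangement that binds a p53 tetramer, was found in Ccng1, Cdkn1a and Rps27l and in 0.718% of all genes with a window. The palindrome was searched in 1 reading, which covers both strands. A match is a description of the letters and not of binding in these cells. The sequences are shown for these 3 genes because they hold the paired sites, for Bax because its levels separated the genotypes at both times, and for Mdm2 as p53's own regulator. Each reads 5′ to 3′ on the gene's strand, with the half-sites of a pair, or the single exact match, in capitals and 20 flanking bases on both sides.
Ccng1: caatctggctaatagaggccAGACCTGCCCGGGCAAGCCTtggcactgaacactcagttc
Cdkn1a: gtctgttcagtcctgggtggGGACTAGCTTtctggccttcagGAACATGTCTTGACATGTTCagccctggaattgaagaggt
Rps27l: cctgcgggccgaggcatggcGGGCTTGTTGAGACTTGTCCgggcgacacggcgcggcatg
Bax: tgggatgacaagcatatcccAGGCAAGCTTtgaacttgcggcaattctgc
Mdm2: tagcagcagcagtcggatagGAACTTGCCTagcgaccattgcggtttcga

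The Ccng1 stretch lies at chr11:40755442-40755501, the Cdkn1a stretch at chr17:29090886-29090967 and the Rps27l stretch at chr9:66946276-66946335. The Bax stretch lies at chr7:45467070-45467119 and the Mdm2 stretch at chr10:117710915-117710964. None overlapped an annotated exon in GENCODE M21. The Rps27l pair is intronic, before a second, internal transcript start, the Bax stretch lies within the body of the overlapping gene model Gm45808, and the other 3 are intergenic. In Cdkn1a the 3 half-sites in capitals form 2 pairs that share the middle one, of which the first and the middle match exactly and the last has 1 mismatch. They stand before the upstream one of the starts in the table. The map of the matches shows every exact half-site in the windows.

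**Figure D1:**
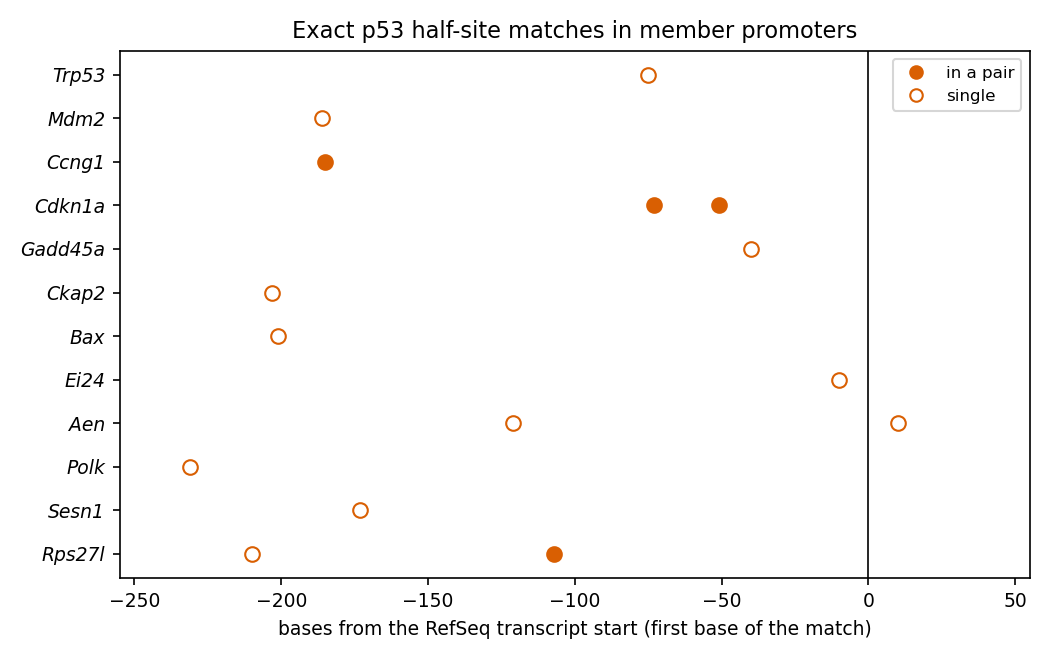
Positions of exact p53 half-site matches in the promoters of the 12 genes that had one. The x axis gives bases from a RefSeq transcript start (vertical line) to the first base of the match, filled circles belong to a pair and open circles are single. Matches in Ccng1 and Cdkn1a and 1 of 2 in Rps27l belong to pairs, and the match in Aen is drawn against both of its starts.

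In WT endothelium at 4 weeks the 33 genes spanned a wide range of levels per length, given as CPM per kilobase of exon. Rps27l, a ribosomal protein paralog that p53 activates, stood first at 199 ± 22.2 (SD, n = 5), followed by the cell cycle inhibitor Cdkn1a at 174 ± 54.0, Plk2 at 154 ± 17.8, the antiproliferative Btg2 at 128 ± 33.5 and the epoxide hydrolase Ephx1 at 123 ± 27.6. Neighbours among these 5 did not differ beyond their SDs. The death receptor Fas at 62.6 ± 10.9, Bax at 37.0 ± 5.29 and Trp53 at 24.2 ± 3.45 each stood apart from the gene above and below, and from Mdm2 at 13.3 ± 3.44 downward neighbours again overlapped. The lowest were Ckap2, Pidd1 and Psrc1, at 0.329, 0.278 and 0.112. At 4 weeks 28 of the 33 genes in WT and 29 in KO exceeded 3 counts throughout, but 13 in each 2-week group, and 4 had no count in any 2-week WT library. A 2-week library without counts of a gene is below the floor of 3 counts, 0.0734 to 0.112 CPM, which covers counting error only. Zeros also stood beside high values in the same group, such as Sesn2 at 0, 0, 82.8 and 0 CPM in 2-week WT f1, f4, m2 and m3. A zero therefore does not place the gene's level in the cells below that floor.

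**Figure D2:**
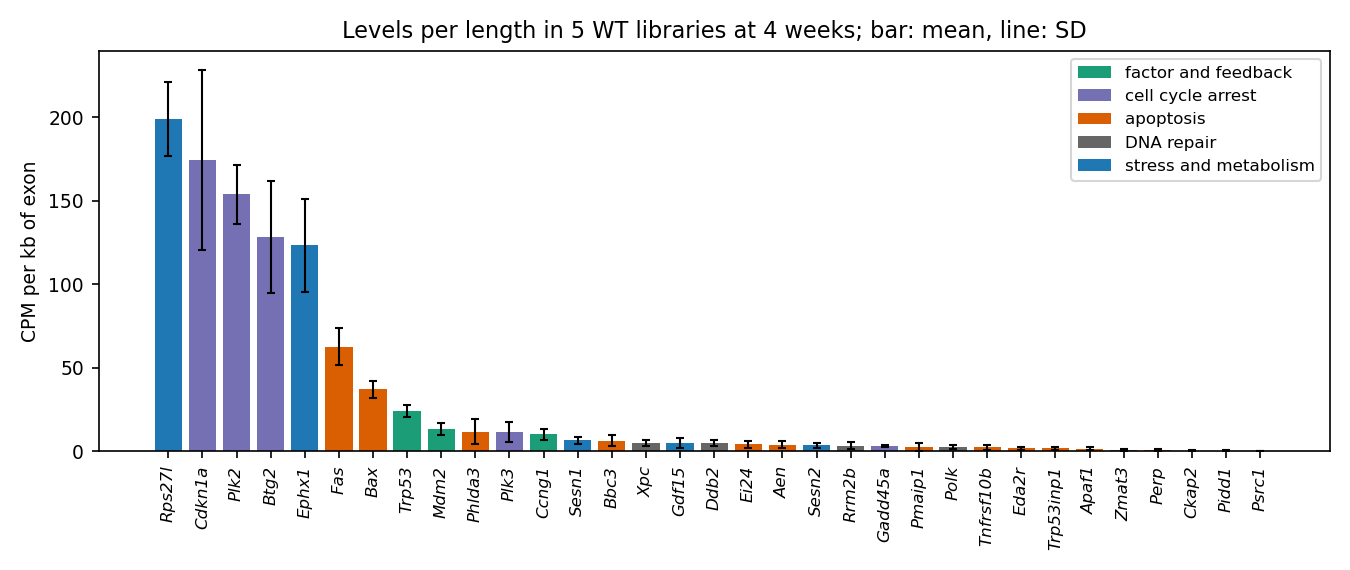
Levels per length of the 33 genes in the 5 WT libraries at 4 weeks. Bars are mean CPM per kilobase of exon and lines the SD, coloured by functional arm. Rps27l, Cdkn1a, Plk2, Btg2 and Ephx1 form the top, and most genes of apoptosis and DNA repair lie under 10.

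Most of the measured genes were higher in KO at 4 weeks, while at 2 weeks their share stood nearer to that of all genes. Of 32 genes that passed the filter on low counts at 4 weeks, 27 had a log2 fold change above 0, against 51.3% of all 15209 genes tested, and their median was 0.69 against 0.01 over all genes. At 2 weeks 13 of 23 were higher, against 46.9% of 10477 genes, with a median of 0.37 against -0.06. At 4 weeks 9 genes were higher with an unadjusted p under 0.05, a criterion met by 1.3% of all genes: Cdkn1a, Bax, Eda2r, Phlda3, Sesn1, Sesn2, Gdf15, Ephx1 and Rps27l. At 2 weeks 3 genes were, Bax, Ephx1 and Rps27l, where 1.16% of all genes met it. Without the neutrophil-rich KO m2 and m3, an alternative chosen after seeing the data, 1 gene met it at 2 weeks, where 1.08% of all genes did, and with all 17 libraries in 1 fit 4 met it at 4 weeks, where 0.259% did. None was lower by that criterion, which 1.47% of genes met in that direction at either time. With p-values of edgeR's quasi-likelihood test adjusted over all genes (Benjamini-Hochberg), 0 of all genes (0%) passed 0.05 at either time, where 422 at 4 weeks and 276 at 2 weeks had an unadjusted p under 0.05. DESeq2 passed 17 genes at 4 weeks, 3 of them members, and 149 at 2 weeks, 2 of them members.

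**Figure D3:**
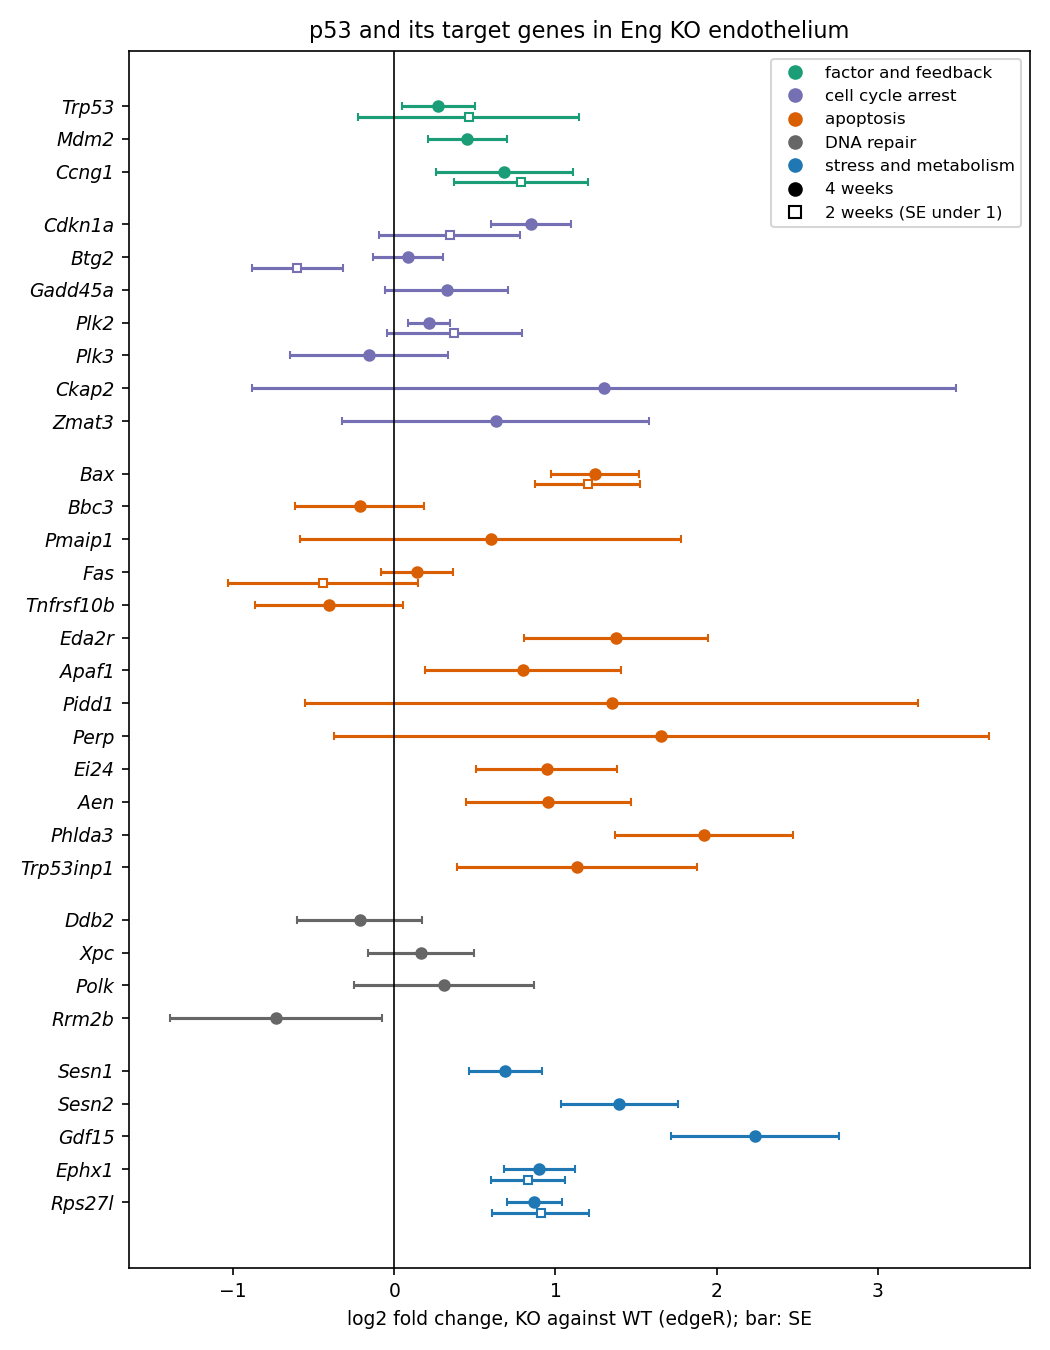
Log2 fold change of KO against WT for the 32 genes tested at 4 weeks (filled circles) and for those tested at 2 weeks with an SE under 1 (open squares), with lines for the SE from edgeR and colours for functional arm. Most points at 4 weeks lie to the right of 0, and Bax, Ephx1 and Rps27l have nearly the same value at both times.

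Of the factor and its feedback, Trp53 RNA varied widely at 2 weeks, at 105, 98.9, 69.4 and 10.5 CPM in WT f1, f4, m2 and m3 and 164, 53.5, 36.3 and 100 CPM in the KO libraries of the same names. At 4 weeks it was at 109, 87.6, 104, 78.4 and 110 CPM in WT f, f3, m1, m2 and m3 and at 141, 110, 70.3 and 138 CPM in KO f2, m1, m2 and m3. Values of the other genes are given in these orders. The groups overlapped at both times, with KO f1 highest at 2 weeks and KO m2 lowest at 4 weeks. The log2 fold change was 0.46 ± 0.68 (SE, n = 4 and 4) at 2 weeks and 0.27 ± 0.23 (SE, n = 5 and 4) at 4 weeks. Trp53 has 1 annotated pseudogene with a related name, whose reads could be counted with it.

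Mdm2, the ligase that limits p53, was at 0, 27.9, 51.5 and 58.4 CPM in 2-week WT and 0, 47.7, 9.8 and 27.1 CPM in 2-week KO. At 4 weeks it was at 84.1, 69.4, 66.1, 39.3 and 79.7 CPM in WT and 77.7, 116, 88.4 and 79.4 CPM in KO. Library f1 of each genotype had no Mdm2 counts at 2 weeks, and at 4 weeks 2 KO libraries lay above all WT. The 4-week log2 fold change was 0.45 ± 0.24, and the 2-week value of -0.36 had an SE of 2.42.

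Ccng1 encodes cyclin G1, a p53 target that acts on Mdm2 through a phosphatase. It was at 81.3, 55, 81.5 and 66.8 CPM in WT and 184, 48.9, 116 and 144 CPM in KO at 2 weeks, with 3 KO libraries above all WT and f4 below them. At 4 weeks it was at 48.8, 23.9, 46.3, 33.7 and 26.3 CPM in WT and 28.6, 108, 79.1 and 34 CPM in KO, so that m1 and m2 alone lay above WT. These were also the KO libraries with the higher stromal and osteoblast sums, 2089 and 2697 CPM against 859 in f2 and 903 in m3, while WT f, m1 and m2 had 2757, 2311 and 2960 CPM. Sums of 12 immediate early genes of tissue dissociation were higher in them too, at 15424 and 15962 CPM against 10681 in f2 and 12075 in m3. In WT those sums were 16598, 14617 and 12614 CPM in f, m1 and m2, and 10040 and 13421.5 CPM in f3 and m3. The part of these cells and of dissociation was not tested. The log2 fold change of Ccng1 was 0.78 ± 0.42 at 2 weeks and 0.68 ± 0.42 at 4 weeks.

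Of 7 arrest genes tested at 4 weeks, 6 were higher in KO, where 51.3% of all genes were, with a median log2 fold change of 0.32. Cdkn1a, which encodes the cyclin-dependent kinase inhibitor p21, was the one with an unadjusted p under 0.05. It was at 604, 441, 693, 455 and 907 CPM in 4-week WT and 1289, 1042, 817 and 1257 CPM in KO. WT m3 lay above KO m2, and the other 3 KO libraries exceeded all WT. The log2 fold change was 0.85 ± 0.25, a ratio of means of 1.78. At 2 weeks the levels were 328, 283, 851 and 219 CPM in WT and 468, 677, 388 and 500 CPM in KO. WT m2 was the highest of the 8, the other 3 WT libraries were the lowest, and the log2 fold change was 0.34 ± 0.44. Reads of Cdkn1a may include those of AC167363.2, which overlaps it on the other strand, since the strand setting of the counting is not given in the sources used here.

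The other arrest genes showed smaller or less even differences. Btg2 had a log2 fold change of -0.60 ± 0.28 at 2 weeks and 0.09 ± 0.22 at 4 weeks. Plk2, a stress-responsive kinase, had 0.37 ± 0.42 and 0.21 ± 0.13. Plk3, a related kinase, had 17 counts in WT f4 and none in the other 2-week WT libraries, against 9.81, 40.4, 0 and 0.0275 CPM in KO. At 4 weeks it was at 33.8, 21.4, 54.4, 14.5 and 22.5 CPM in WT and 18.4, 51.6, 25.7 and 13.9 CPM in KO. The 2-week difference thus sat in KO f1 and f4, and the groups overlapped at 4 weeks, where the log2 fold change was -0.16 ± 0.49. Zmat3, an RNA-binding p53 target, had 0, 0, 0.0307 and 11.1 CPM in 2-week WT and 25.1, 27.3, 33.1 and 5.53 CPM in KO. It was among the sparse genes at that time, with a log2 fold change of 6.52 ± 4.51, and at 4 weeks the value was 0.63 ± 0.95. Gadd45a, Ckap2 and Psrc1 were each without counts in most 2-week libraries, and Psrc1 was not tested at either time.

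Bax separated the genotypes at both times. It encodes the BCL2-family protein that permeabilizes the outer mitochondrial membrane. At 2 weeks it was at 74.7, 41.2, 54.6 and 34.4 CPM in WT and 121, 121, 90.7 and 131 CPM in KO, and at 4 weeks at 53.2, 65.3, 66.9, 47 and 59.2 CPM in WT and 160, 125, 72.9 and 179 CPM in KO. Every KO library exceeded every WT library at both times, and KO m2 came closest to WT at both. The log2 fold change was 1.20 ± 0.33 at 2 weeks and 1.24 ± 0.27 at 4 weeks, ratios of means of 2.26 and 2.30. In the fit over all 17 libraries the common KO effect was 1.24 ± 0.20 with an edgeR adjusted p of 0.032, which 0.0962% of 13515 genes passed, 13 in all, and Bax was the only one of 29 tested members among them. In the same fit 19 of the 29 were higher in KO, against 48.6% of all genes, and 9 were higher with an unadjusted p under 0.05, against 5.28%. Without the 2 neutrophil-rich libraries 7 of 32 tested were higher by that criterion, against 3.95%, and 4 were lower. The share of all genes lower was not computed for that alternative. With all 17 libraries it was 5.83%, and 0 members were lower. The call of Bax was lost in 10 of 25 alternatives, with adjusted p-values from 4.4e-07 to 0.17, and the log2 fold change stayed between 1.13 and 1.34. Leaving out WT f, f3, m1, m2 or m3, or KO f2, m1 or m3, all of 4 weeks, was enough to lose it. Without the 2 neutrophil-rich libraries the call stood, and KO f1 and f4 alone, both at 121 CPM, lay above all 2-week WT. The gene model Gm45808 overlaps Bax on the same strand, so some reads could belong to either.

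Complete separation of the genotypes was shared by 2 of 23 genes at 2 weeks, Bax and Ephx1, against 1.58% of all tested genes, and by 6 of 32 at 4 weeks, Bax, Sesn1, Sesn2, Gdf15, Ephx1 and Rps27l, against 0.664%. In the other direction there were 0 members, against 1.78% and 0.526% of all genes. Of 23 genes tested at both times, 12 were higher in KO at both, against 26.2% of 10340 genes.

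**Figure D4:**
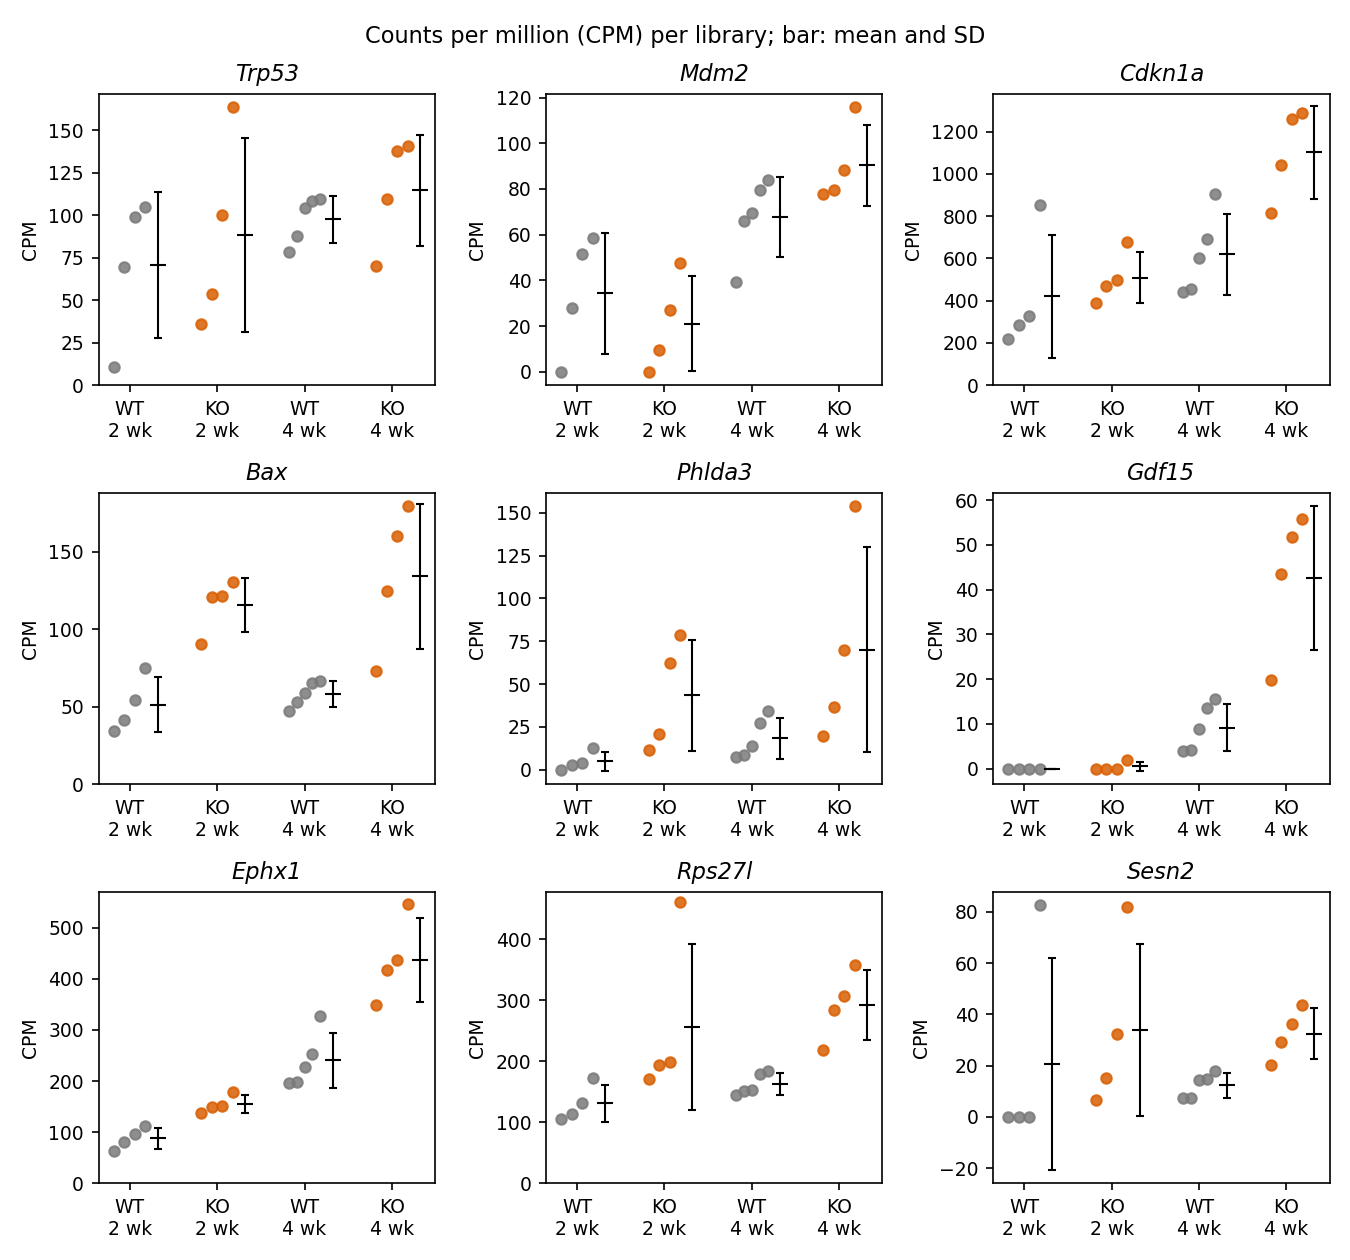
CPM of 9 genes in each library, grey for WT and orange for KO, with the mean and SD to the right of each group (n = 4, 4, 5 and 4). Bax and Ephx1 separate at both times, Rps27l, Gdf15 and Sesn2 separate at 4 weeks, and Trp53 and Mdm2 overlap.

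Phlda3 encodes a PH-domain protein that competes with Akt for membrane lipid and so restrains survival signalling. It was at 3.58, 0, 12.9 and 2.86 CPM in WT and 62.4, 11.3, 20.7 and 78.8 CPM in KO at 2 weeks, and at 13.9, 34.5, 27.1, 7.52 and 8.57 CPM in WT and 154, 70, 19.8 and 36.4 CPM in KO at 4 weeks. KO f4 fell below the top WT library at 2 weeks and KO m2 at 4 weeks, while the other KO libraries lay above all WT. The log2 fold change was 3.52 ± 1.82 at 2 weeks and 1.92 ± 0.55 at 4 weeks.

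Eda2r, a receptor of the TNF receptor superfamily on the X chromosome, was at 13.3, 4.56, 17.1, 10.2 and 3.88 CPM in 4-week WT and 14.7, 50.1, 32.9 and 12.2 CPM in KO, a log2 fold change of 1.37 ± 0.57. KO m1 and m2, the KO libraries with the higher stromal and dissociation sums as for Ccng1, alone exceeded all WT. At 2 weeks it was at 0, 6.85, 15.1 and 8.83 CPM in WT and 0, 0, 34.9 and 47.7 CPM in KO, where the signal lay in the 2 libraries that are also rich in neutrophil markers. Pmaip1, the BH3-only protein Noxa, had no counts at 2 weeks outside KO f1, at 10.8 CPM, and at 4 weeks it was at 8.9, 2.74, 6.07, 0 and 16.3 CPM in WT and 15.2, 2.98, 9.82 and 12.6 CPM in KO. The groups overlapped, and its log2 fold change was 0.60 ± 1.18.

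Among the other apoptosis genes at 4 weeks, the nuclease gene Aen at 0.95 ± 0.51, Ei24 at 0.94 ± 0.44, Trp53inp1 at 1.13 ± 0.74 and the apoptosome scaffold Apaf1 at 0.80 ± 0.61 had positive log2 fold changes. Trp53inp1 was at 17.7, 3.30, 12.2, 15.6 and 3.63 CPM in WT and 8.64, 54.5, 31.2 and 10.4 CPM in KO, and Apaf1 at 26.7, 7.49, 17, 13.1 and 5.72 CPM in WT and 13.3, 39.3, 34.3 and 9.06 CPM in KO. KO m1 and m2 alone exceeded all WT in both genes, and within each genotype the libraries with high stromal sums (WT f, m1 and m2, KO m1 and m2) had the higher levels, as for Ccng1. KO m1 and m2 also had the higher dissociation sums. The part of these cells and of dissociation was not tested. Perp, at 1.66 ± 2.03, and Pidd1, at 1.35 ± 1.90, were too sparse to place. Bbc3, the BH3-only protein Puma, at -0.22 ± 0.40, and the death receptor Tnfrsf10b at -0.40 ± 0.46 lay below 0, and Fas was at 0.14 ± 0.22. In all, 11 of the 13 apoptosis genes were higher in KO at 4 weeks, where 51.3% of all genes were, with a median log2 fold change of 0.95. At 2 weeks 3 of 8 were, against 46.9% of all genes, with a median of -0.38.

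The 4 repair genes were split in direction. At 4 weeks the damage sensor Ddb2 had a log2 fold change of -0.21 ± 0.39, Xpc, its partner in nucleotide excision repair, 0.16 ± 0.33, the translesion polymerase Polk 0.31 ± 0.56, and Rrm2b, a ribonucleotide reductase subunit, -0.74 ± 0.66. Of the 4, 2 were higher and 2 lower, where 51.3% of all genes were higher, with a median of -0.03. At 2 weeks SEs ran from 1.22 for Rrm2b to 7.55 for Ddb2.

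All 5 genes of stress and metabolism were higher in KO at 4 weeks, where 51.3% of all genes were. Ephx1, microsomal epoxide hydrolase, was at 81.2, 63.6, 112 and 95.7 CPM in WT and 179, 149, 137 and 152 CPM in KO at 2 weeks, and at 199, 327, 253, 195 and 227 CPM in WT and 417, 436, 348 and 547 CPM in KO at 4 weeks. The genotypes did not overlap at either time, and the log2 fold changes were 0.83 ± 0.23 and 0.90 ± 0.22. Its common effect was 0.84 ± 0.16, with an edgeR adjusted p of 0.062, from 1.4e-05 to 0.45 over 25 alternatives. Gm36961 overlaps Ephx1 on the same strand.

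Rps27l was at 173, 114, 132 and 105 CPM in WT and 460, 194, 198 and 171 CPM in KO at 2 weeks. WT f1 lay just above KO m3, and KO f1 stood far above the rest. At 4 weeks it was at 144, 152, 153, 180 and 184 CPM in WT and 358, 285, 219 and 308 CPM in KO, without overlap. The log2 fold changes were 0.91 ± 0.30 and 0.87 ± 0.17, and the common effect was 0.92 ± 0.17 with an edgeR adjusted p of 0.062, from 3.1e-05 to 0.18 over the alternatives. Its paralog Rps27, with which it could share reads, was at 897 ± 75.4 CPM in WT and 1024 ± 217 CPM in KO at 2 weeks (SD, n = 4), and its ranges overlapped between genotypes at both times.

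Gdf15, a secreted TGF-beta family cytokine induced by cell stress, was at 3.88, 8.86, 4.11, 13.5 and 15.6 CPM in WT and 51.7, 43.4, 19.9 and 55.8 CPM in KO at 4 weeks. Every KO library was above every WT library, with a log2 fold change of 2.24 ± 0.52 and a ratio of means of 4.65. At 2 weeks it had no counts in 7 of 8 libraries and 67 counts, 1.97 CPM, in KO f4, and it did not pass the low-count filter of the 2-week fit.

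Sesn2, a sestrin that restrains mTORC1, was at 14.4, 7.31, 17.9, 7.23 and 14.6 CPM in WT and 29.3, 36.4, 20.4 and 43.7 CPM in KO at 4 weeks, a log2 fold change of 1.40 ± 0.36. The related Sesn1 was at 34.4, 34.4, 25.8, 15.9 and 19.4 CPM in WT and 39.6, 35.6, 36.2 and 39.5 CPM in KO, with 0.69 ± 0.22. Neither overlapped between genotypes at 4 weeks, though Sesn1 in WT f and f3 came within 2 CPM of KO m1. At 2 weeks Sesn2 was at 0, 0, 82.8 and 0 CPM in WT and 81.7, 6.39, 32.1 and 15.1 CPM in KO. Sesn1 was at 44.4, 15.1, 105 and 1.38 CPM in WT and 35.8, 0, 74.4 and 42.1 CPM in KO. WT m2 held the highest value of each gene at that time, and the 2-week SEs were 7.50 and 1.84.

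Library m2 of the 4-week KO group had the most residual Eng, 63.7% of the WT mean against 10.6% to 33.8% in the other 3, and it was the lowest KO library in several target genes. Of the 6 genes whose genotypes separated at 4 weeks, m2 was the lowest KO library in 5, all but Sesn1. Of the 28 members with a count in every 4-week library it was the lowest in 11, 39.3%, beside 9 for f2. It was the highest KO library for Plk2, Bbc3 and Rrm2b, and it stood at 336% of the WT mean for Eda2r and 298% for Trp53inp1. It was lowest in 14 of the 85 genes with a count in every library that separated in the same direction, 16.5%, and in 25.5% of all 12858 genes with a count in every 4-week library. Bax was at 125% of the WT mean in m2 and at 214% to 308% in the other KO libraries. Gdf15 was at 216% in m2 against 472% to 607%, and Phlda3 at 108% against 199% to 841%. Library m2 also had the highest erythroid sum of the 9 libraries of 4 weeks, 2922 CPM against 627 to 2489 CPM in the other KO libraries, and the lowest endothelial sum, 10057 CPM against 10944 to 12015 CPM in the other 8. With 4 KO libraries the relation of the target genes to Eng or to these sums was not tested.

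**Figure D5:**
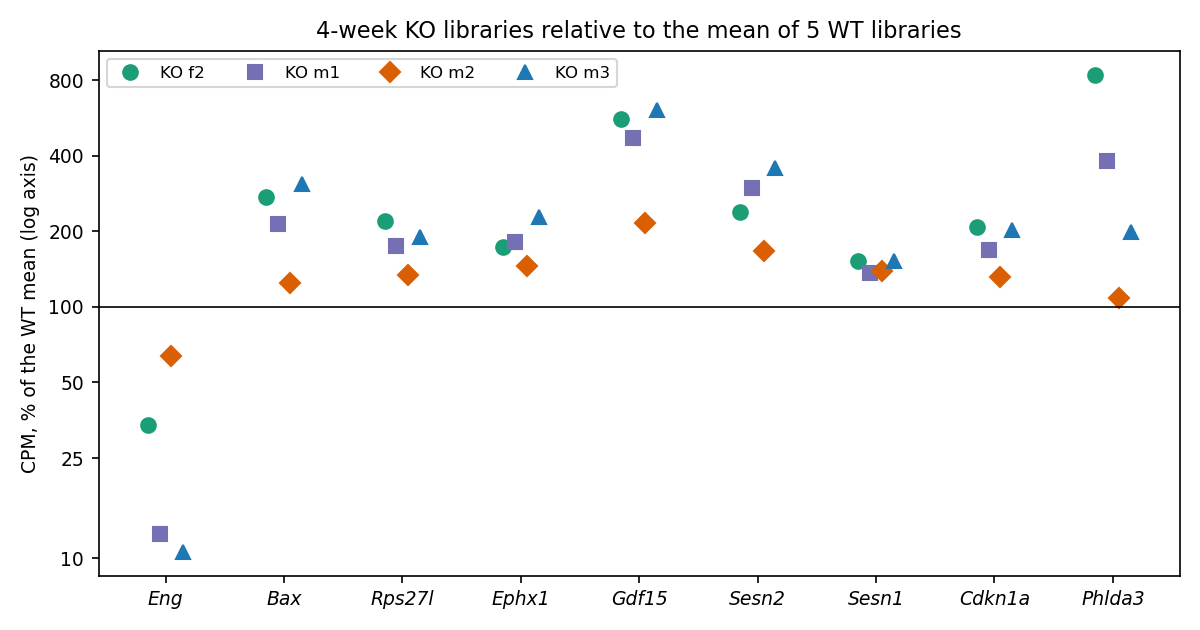
CPM of Eng and 8 target genes in each 4-week KO library as a percentage of the mean of 5 WT libraries, on a log axis with a line at 100. Orange diamonds mark KO m2, which is highest for Eng and lowest for every gene shown but Sesn1.

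The KO effect on the target genes was then compared between the 2 times in the fit of all 17 libraries, in which 29 of the genes were tested. The difference, 4 weeks less 2 weeks, was 0.02 ± 0.40 for Bax, 0.03 ± 0.32 for Ephx1 and -0.06 ± 0.34 for Rps27l on the log2 scale. For Cdkn1a it was 0.50 ± 0.50. None of the 29 passed an adjusted p of 0.05, which 0.104% of all genes did, and SEs of this size leave room for differences that could not be seen here. Plk3 at -6.14 ± 2.64 and Pmaip1 at -8.20 ± 3.69 had unadjusted p-values under 0.05 in the direction of a smaller effect at 4 weeks, a criterion met by 4.47% of genes. Each rests on 2-week groups with counts in at most 4 of 8 libraries.

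Between 2 and 4 weeks within a genotype, 4 of the 29 genes rose in WT, where 5.74% of all genes rose, and 3 rose in KO, where 5.7% did. Of the 4 in WT, Gdf15 and Plk3 did not pass the low-count filter with the 2-week libraries alone. They entered this fit through the 4-week libraries, where they are high, so their calls are descriptions. None of the 29 fell at an adjusted p under 0.05, which 2.29% of all genes did in WT and 1.86% in KO. Plk2 rose from 202, 70.7, 79.6 and 104 CPM to 776, 564, 732, 707 and 675 CPM in WT and from 96.9, 182, 168 and 134 CPM to 654, 898, 1001 and 697 CPM in KO. No 4-week library overlapped a 2-week library. The log2 changes were 2.29 ± 0.30 (edgeR adjusted p = 0.00038) in WT and 2.15 ± 0.31 (edgeR adjusted p = 0.00085) in KO, and both calls held in all 25 alternatives. Ephx1 rose by 1.15 ± 0.22 in WT and 1.18 ± 0.23 in KO, with edgeR adjusted p-values of 0.0055 and 0.0068. The WT call was lost with voom, at an adjusted p of 0.094, and the KO call with voom, at 0.073, and without the 2 neutrophil-rich KO libraries, at 0.058, and both held in the other alternatives. Its 4 groups did not overlap, in the order 2-week WT, 2-week KO, 4-week WT and 4-week KO. All 10 endothelial markers were also higher at 4 weeks in that fit, with a median log2 change of 1.08 in WT and 1.11 in KO. Of all genes, 60.5% were higher in WT and 61.7% in KO. The part of this wider shift in the rise of Ephx1, or of Fas below, was not tested.

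Of the remaining calls, those of Gdf15 and Plk3 rested on low 2-week levels and that of Fas did not. Gdf15 had no counts in 2-week WT, and its rise in WT had an edgeR adjusted p of 0.022. Its mean in 4-week WT was 113 times the mean 2-week floor of 3 counts per library. That ratio covers counting error only and sets no lower bound on the change. Plk3 rose in WT with an edgeR adjusted p of 0.03, a call that held in 19 of 24 alternatives and was lost without the sex term or without 4-week WT m3 or 2-week WT f1, m2 or m3, with adjusted p-values up to 0.079. Fas rose in KO, from 43.2, 67, 22.5 and 23.1 CPM to 191, 83.1, 140 and 140 CPM, by 1.68 ± 0.38 with an edgeR adjusted p of 0.016. That call held in 21 of 25 alternatives and was lost with voom, without 4-week KO f2, without 2-week KO m3 and without the neutrophil-rich 2-week KO m2 and m3 together, with adjusted p-values of up to 0.13. Its change in WT was 1.11 ± 0.36 with an adjusted p of 0.075, and the difference between the changes was 0.56 ± 0.51 (edgeR adjusted p = 1). Ccng1 had the largest negative values, -1.32 ± 0.41 in WT and -1.41 ± 0.45 in KO, with adjusted p-values of 0.065 and 0.073. Immediate early genes of tissue dissociation moved with time as well: 12 such genes summed to 1135 to 2470.4 CPM at 2 weeks and 10039.7 to 16598 CPM at 4 weeks, and their part in the rise of Plk2, Plk3 and Gdf15 was not tested.

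The 33 genes were set in their pathway with 4 further lists, each compared between genotypes at 4 weeks. Of 26 regulators of p53 in the tables, 23 were tested, 13 were higher and 10 lower, where 51.3% of all genes were higher, with a median log2 fold change of 0.05. Rpl23, a ribosomal protein that binds Mdm2, was at 0.26 ± 0.10, and Rpl11, another ribosomal protein, at 0.25 ± 0.13. At 2 weeks the values were 0.37 ± 0.16 and 0.32 ± 0.16. Daxx, an Mdm2 partner, was at 0.48 ± 0.19 and the checkpoint kinase Chek2 at -0.35 ± 0.18. With Rpl23 and Daxx, 2 regulators had an unadjusted p under 0.05 in the higher direction at 4 weeks, met by 1.3% of all genes, and none in the lower, met by 1.47%.

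A second list held 50 further genes known as p53 targets. Of 44 tested, 24 were higher and 20 lower, where 51.3% of all genes were higher, with a median of 0.03, close to that of all genes at 0.01. By an unadjusted p under 0.05, 1 was higher and 1 lower, where 1.3% and 1.47% of all genes were. Dcxr, a carbonyl reductase, was higher at both times, by 1.25 ± 0.41 at 4 weeks and 2.00 ± 0.74 at 2 weeks, whereas Pltp, the phospholipid transfer protein, was at -0.48 ± 0.17 at 4 weeks. Vwa5a was at -0.77 ± 0.35 and Abhd4 at 0.39 ± 0.19. At 2 weeks 19 of 31 tested were higher, where 46.9% of all genes were, with a median of 0.36 beside 0.37 for the members and -0.06 for all genes. By an unadjusted p under 0.05, 2 were higher and 0 lower at 2 weeks, where 1.16% and 1.47% of all genes were. At 4 weeks this list's share of higher values stood beside 27 of 32 for the members, and the difference between the lists was not tested.

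Of 24 tested BCL2-family genes and caspases other than the members, 8 were higher and 16 lower, where 51.3% of all genes were higher. Their median was -0.12, and none had an unadjusted p under 0.05, where 1.3% of all genes were higher and 1.47% lower by it. The smallest p-values belonged to the inhibitors of apoptosis Birc2, at -0.60 ± 0.28, and Birc3, at -0.50 ± 0.26, followed by Casp2 at -0.66 ± 0.35 and the adaptor Fadd at -0.72 ± 0.41. Of 24 tested cell cycle genes that p53 is known to repress through p21 and the DREAM complex, 16 were higher and 8 lower, beside the same 51.3%. Their median was 0.24, and again none had an unadjusted p under 0.05. Plk1, a mitotic kinase, was at 5.23 ± 2.96 and Aurka, another, at 1.16 ± 0.66. The replication helicase genes Mcm6, at 0.22 ± 0.17, and Mcm2, at 0.40 ± 0.33, came next.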

How the data were processed

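The authors deposited a table of raw gene counts for each library, and no normalization is recorded. The submitters' processing notes name cutadapt, STAR and HTSeq 0.6.1p1 and the builds GRCm38 and mm10, with no role or order. The annotation release and the strand setting are not given in the sources used here. Per the labels' protocols, marrow from crushed long bones was sorted for CD31 and Sca1 in the absence of CD45 and Ter119, and SmartSeq2 libraries were made, which carry no molecular identifiers, so floors cover counting error only. The series' design text gives the gate without Sca1.

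Symbols and positions came from GENCODE M21 (GRCm38), which matched 49326 of 49585 identifiers. Promoters came from the RefSeq table of GRCm38.p6. Counts were fitted with edgeR 4.0.16 (quasi-likelihood, robust, TMM scaling, filterByExpr on genotype) in R 4.3.3, per time point with sex and genotype as terms, and over all 17 libraries with group means plus sex. P-values were adjusted by Benjamini-Hochberg over all genes tested. SEs derive from the F statistic. CPM uses the library total, and the floor was 3 counts. DESeq2 1.42.0 and limma 3.58.1 (voom) were alternatives. The code was tested on simulated counts. No 2 replicates agreed within sampling noise.

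The members and gene lists were chosen with earlier results of these data known. By the naming rule, values in every library are given for 8 listed genes (Trp53, Mdm2, Cdkn1a, Bax, Rps27l, Gdf15, Ephx1 and Phlda3) and for each member with an unadjusted p under 0.05 in a genotype comparison, 14 in all, and each further list is represented by its 4 genes of smallest p. Plk2, Fas, Zmat3 and the single values of other members were named after their values were seen. The fits carry no replicate block. Same-numbered WT and KO libraries did not all deviate together, which cannot decide whether they were paired.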

Additional observations from a re-analysis of the deposited data

Results flagged for a closer look

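In 54 groups of 4 or 5 libraries, over the 14 genes given library by library, the highest or lowest library was compared with its neighbours by Dixon's criterion. For normally distributed values chance alone meets it in about 1 group in 20. The criterion was met 5 times, each at 2 weeks, where transcripts were detected sparsely. In all but Rps27l the other 3 libraries of the group were at 0. The criterion is then met whatever the remaining value, so that rate does not apply. Rps27l was at 460 CPM in KO f1 against 171 to 198 CPM in the other 3 KO libraries. Sesn2 was at 82.8 CPM in WT m2 and at 0 in the other 3 WT libraries, and leaving m2 out moved the difference of the Sesn2 KO effect between times past the adjusted threshold. Pmaip1 was at 10.8 CPM in KO f1, Gdf15 at 1.97 CPM in KO f4 and Plk3 at 0.416 CPM in WT f4, each with 0 in the other 3 libraries of its group.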

How the results depend on the processing

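Counts past an adjusted p of 0.05 depended on the test more than on scaling. For KO against WT at 2 weeks, 0 genes in the reported fit became 149 with DESeq2, 12 with voom and 33 with all 17 libraries in 1 fit, and 0 members became 2 with DESeq2 (Bax and Ephx1). At 4 weeks DESeq2 gave 17 genes and 3 members (Bax, Gdf15 and Rps27l). For the common KO effect, 13 genes became 8 without a low-count filter, 3 with at least 10 counts in every library, 1004 with DESeq2, 30 without the sex term and 325 without the 2 neutrophil-rich 2-week KO libraries, the last an alternative chosen after seeing the data, and 5 to 62 when 1 library was left out. The 1 member, Bax, became 0 without the filter and with voom, 7 with DESeq2, 3 without the sex term, 4 without the neutrophil-rich libraries and 0 to 3 with 1 library left out. For the difference between times, 14 genes became 6 without the filter, 0 with at least 10 counts, 929 with DESeq2, 9 with voom, 278 without the neutrophil-rich libraries and 7 to 52 with 1 library left out, and 0 members became 1 with DESeq2 (Pmaip1) and 0 to 1 with 1 left out (Sesn2, without 2-week WT m2). For 4 against 2 weeks in WT, 1086 genes became 580 without the filter, 639 with at least 10 counts, 2090 with DESeq2 and 520 to 1398 with 1 library left out, and 4 members became 8 with DESeq2. In KO, 1022 genes became 567, 626, 2144 and 604 to 1300 under the same settings, and 3 members became 8 with DESeq2, 5 with voom and 2 to 5 with 1 left out. The causes were not tested. At 4 weeks 25 to 29 tested members were higher in KO under every alternative except the filter of at least 10 counts, with 22 of 27. Members higher with an unadjusted p under 0.05 numbered 4 to 11 at 4 weeks, where 0.259% to 2.77% of all genes met it, and 1 to 7 at 2 weeks, where 0.8% to 6.55% did, the 1 without both neutrophil-rich libraries and the 7 at the 6.55% of the fit of all 17 libraries. Members lower by it numbered 0 at 4 weeks and 0 to 2 at 2 weeks, the 2 with DESeq2. The share of all genes lower by it was 1.47% at either time in the reported fits and was not computed for the alternatives. With a replicate block in place of the sex term, 0 genes passed at 2 weeks and 0 at 4 weeks. By an unadjusted p under 0.05, 3 and 11 members were then higher, where 1.27% and 1.93% of all genes were. By the same criterion 1 and 0 members were lower, and the share of all genes lower was not computed. Same-numbered libraries correlated at -0.02 to 0.05 at 2 weeks and 0.05 to 0.16 at 4 weeks. Libraries with different numbers correlated at -0.07 to 0.07 and -0.15 to 0.14. With so few same-numbered pairs, these values cannot decide whether the samples share more than a number. Sparse detection limits the 2-week values, where 13 of 33 members exceeded 3 counts throughout a group although the totals were not lower than at 4 weeks; its cause was not tested.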
